A study of Homo sapiens with 9 samples.

Results

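The genes described here are the feedback regulators and transcriptional targets of ERK signalling: the phosphatase genes DUSP4, DUSP5 and DUSP6, the Sprouty genes SPRY1, SPRY2 and SPRY4, the ETS factor genes ETV4 and ETV5, and EGR1. Their probe sets were found by gene symbol in the probe annotation, and no threshold on their values was used. All 9 genes were measured, by 15 of the 22215 probe sets tested. The arrays measured 11963 genes by a probe set with 1 symbol.

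U251 is an established line of human glioma cells, and its cultures formed 3 groups of 3 arrays. In the WT1 siRNA group, WT1, which encodes a zinc finger transcription factor, was targeted by small interfering RNA (siRNA) at 100 nM with the transfection reagent Oligofectamine. The scrambled siRNA group received a non-targeting siRNA at 100 nM in the same reagent, and the reagent group received Oligofectamine without siRNA. All groups therefore shared the reagent, and no untransfected culture was analysed here. Transfection lasted 4 hours, and the sources used here do not give the interval from then to RNA extraction. The results rest on a single cell line and a single siRNA treatment against WT1, and transcript levels give no measure of ERK phosphorylation. Arrays carry a replicate number from 1 to 3 within each group, and the comparisons below are paired by it.

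ERK is the last kinase of the RAS, RAF and MEK cascade that growth factor receptors switch on. Active ERK phosphorylates ETS factors and induces early-response genes such as EGR1. Among its other targets are genes whose products switch the cascade off again: DUSP phosphatases remove the phosphates that activate ERK, and Sprouty proteins block the cascade between the receptor and RAF. The transcript levels of these genes are often read as an output of ERK signalling in glioma and other tumours.

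Promoter sequences are shown for DUSP6, SPRY2 and EGR1, because each has a probe set that was higher with WT1 siRNA than with scrambled siRNA in all 3 replicate numbers, and because ETS factors, SRF, EGR1 and WT1 itself bind sites of known sequence. ETV4 and ETV5 also have such a probe set, but no promoter of either was among those used here. Each run is the 250 bases before a RefSeq transcription start (build GRCh38.p14), read 5′ to 3′ along the gene's strand. The DUSP6 run is chr12:89352502-89352751 (minus strand), the SPRY2 run is chr13:80341127-80341376 (minus strand), before the first of 3 listed starts, and the EGR1 run is chr5:138465229-138465478 (plus strand). Capitals mark matches on either strand to GCGNGGGCG (a site that EGR1 and WT1 can both bind), to the ETS core as CGGAAG or AGGAAG, and to the CArG box that SRF binds.
DUSP6: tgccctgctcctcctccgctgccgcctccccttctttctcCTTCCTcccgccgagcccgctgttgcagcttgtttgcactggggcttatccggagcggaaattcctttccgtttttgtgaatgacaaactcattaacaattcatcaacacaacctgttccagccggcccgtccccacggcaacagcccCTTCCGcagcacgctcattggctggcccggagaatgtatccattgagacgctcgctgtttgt
SPRY2: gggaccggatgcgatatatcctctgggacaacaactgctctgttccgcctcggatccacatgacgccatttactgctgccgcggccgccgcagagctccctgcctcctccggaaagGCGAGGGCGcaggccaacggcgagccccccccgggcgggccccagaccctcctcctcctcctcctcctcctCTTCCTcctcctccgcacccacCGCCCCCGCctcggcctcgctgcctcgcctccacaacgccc
EGR1: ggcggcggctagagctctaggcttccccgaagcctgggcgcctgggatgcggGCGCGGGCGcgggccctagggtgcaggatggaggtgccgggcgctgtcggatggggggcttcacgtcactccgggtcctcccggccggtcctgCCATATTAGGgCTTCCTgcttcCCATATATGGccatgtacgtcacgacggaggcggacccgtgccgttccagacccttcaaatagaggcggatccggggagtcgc

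Positions are counted back from the start site to the first base of the match along the gene's strand. The EGR1 run holds GCGCGGGCG at −198 and CArG boxes CCATATTAGG at −105 and CCATATATGG at −83, with 1 ETS core on the opposite strand between them at −94. The SPRY2 run holds GCGNGGGCG at −134 and, on the opposite strand, at −41, and an AGGAAG core on the opposite strand at −63. The DUSP6 run holds an ETS core of each kind on the opposite strand, CGGAAG at −62 and AGGAAG at −210, and GCGNGGGCG was not found in it.

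These matches are descriptions of letters and not of binding. In all 35116 RefSeq promoters of 300 bases (250 before the start and 50 after it), GCGNGGGCG was found in 9.43%, CGGAAG in 19.5%, AGGAAG in 33.6% and the CArG box in 1.29%. The median share of G and C over all promoters was 58.7%. In the member promoters that hold GCGNGGGCG it was 65.0 to 71.0%, and these shares were not matched for it. The cAMP response element TGACGTCA (1.85% of promoters) and the AP-1 site TGACTCA (4.95%) were also searched and were found in none of the 8 member promoters searched. Those 8 belong to 5 of the 9 genes, and no promoter of DUSP4, DUSP5, ETV4 or ETV5 was among them. Promoters on chromosome 8, which carries DUSP4, were left out of the member search, so nothing is said of the DUSP4 promoter. Of the promoters not shown, the second of the SPRY1 starts has GCGNGGGCG at −28, CGGAAG at −66 and AGGAAG on the opposite strand at −215, and SPRY4 has GCGNGGGCG on the opposite strand at −195. The second SPRY2 start has AGGAAG on the opposite strand at −104, the third has it at −245, and the first SPRY1 start has 0 matches.

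Values are deposited log2 levels. A difference of 1 is a doubling, and levels of different probe sets are not compared with each other. Array medians lay between 6.45 and 6.53. The glioma and astrocyte markers VIM (13.57 to 13.71), CD44 (12.85 to 13.25) and SOX9 (9.59 to 10.06) were bright on every array, whereas GFAP varied from 5.36 to 9.25 and S100B lay between 4.47 and 5.69. Of the same list NES read 8.62 to 9.74, while SOX2 (7.15 to 9.09) and FABP7 (8.04 to 10.09) varied more between arrays. Markers of other cell types were uneven. Of leukocytes PTPRC (4.49 to 4.73) and CD14 (4.72 to 4.87) lay low and AIF1 above the array medians (6.66 to 6.95). Of endothelium CDH5 read 4.22 to 4.44, PECAM1 5.44 to 5.83 and VWF 5.50 to 5.97, and of oligodendrocytes MOG read 4.33 to 4.72 and MBP 5.15 to 5.38. Of neurons SYP read 5.27 to 5.43, GAP43 5.15 to 6.27 and SNAP25 6.37 to 6.70. The epithelial KRT18 was high (9.80 to 10.65) while EPCAM (4.16 to 4.49) and CDH1 (4.18 to 4.52) were not. WT1 itself, at its probe set 206067_s_at, averaged 4.89 ± 0.172 with WT1 siRNA, 5.63 ± 0.243 with scrambled siRNA and 6.18 ± 0.36 with reagent (SD, n = 3 each). That is 60.0% of the scrambled level (adjusted p = 0.00336) and 41.0% of the reagent level (0.000619). Scrambled siRNA lay at 68.4% of reagent (0.0164), and at the second WT1 probe set the 3 comparisons did not pass (adjusted p 0.42 to 0.959). Without the pairing by replicate number, 206067_s_at did not pass in any comparison (adjusted p 0.394 or more). In that unpaired fit the unadjusted p of WT1 siRNA was 0.00454 against scrambled siRNA and 0.000118 against reagent. The group means of 206067_s_at lie below the array medians.

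With WT1 siRNA, 1 of the 15 member probe sets passed as higher than with scrambled siRNA (DUSP6) and 2 as higher than with reagent (DUSP5 and ETV4). With scrambled siRNA, 1 was higher than with reagent (DUSP5), and 0 were lower in any comparison. An adjusted p under 0.05 over all probe sets counts as passing. At that threshold 3.27% of all probe sets passed between WT1 and scrambled siRNA (1.33% as higher, 1.94% as lower). It was 1.25% between WT1 siRNA and reagent (0.41% higher, 0.837% lower) and 1.09% between scrambled siRNA and reagent (0.554% higher, 0.536% lower). Before adjustment, 6, 7 and 6 of the 15 had p under 0.05 in the paired fit, beside 16.4%, 15.1% and 11.9% of all probe sets. Without the pairing by replicate number, 0 member probe sets passed in each comparison, beside 0.018%, 0% and 0.0045% of all probe sets. In that unpaired fit 1, 0 and 0 members had unadjusted p under 0.05, beside 3.71%, 2.77% and 2.17% of all.

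The median member difference was 0.13 against scrambled siRNA (10 of 15 above 0) and 0.20 against reagent (15 of 15 above 0). Between scrambled siRNA and reagent it was 0.06 (8 of 15 above 0). Over all probe sets the medians were 0.00, 0.01 and 0.01, with 51.7%, 55.6% and 55.0% above 0. The comparisons of each siRNA with reagent share the reagent arrays, and those with the WT1 siRNA share its arrays. Probe sets of 1 gene measure the same transcripts and are not independent of each other.

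**Figure D1:**
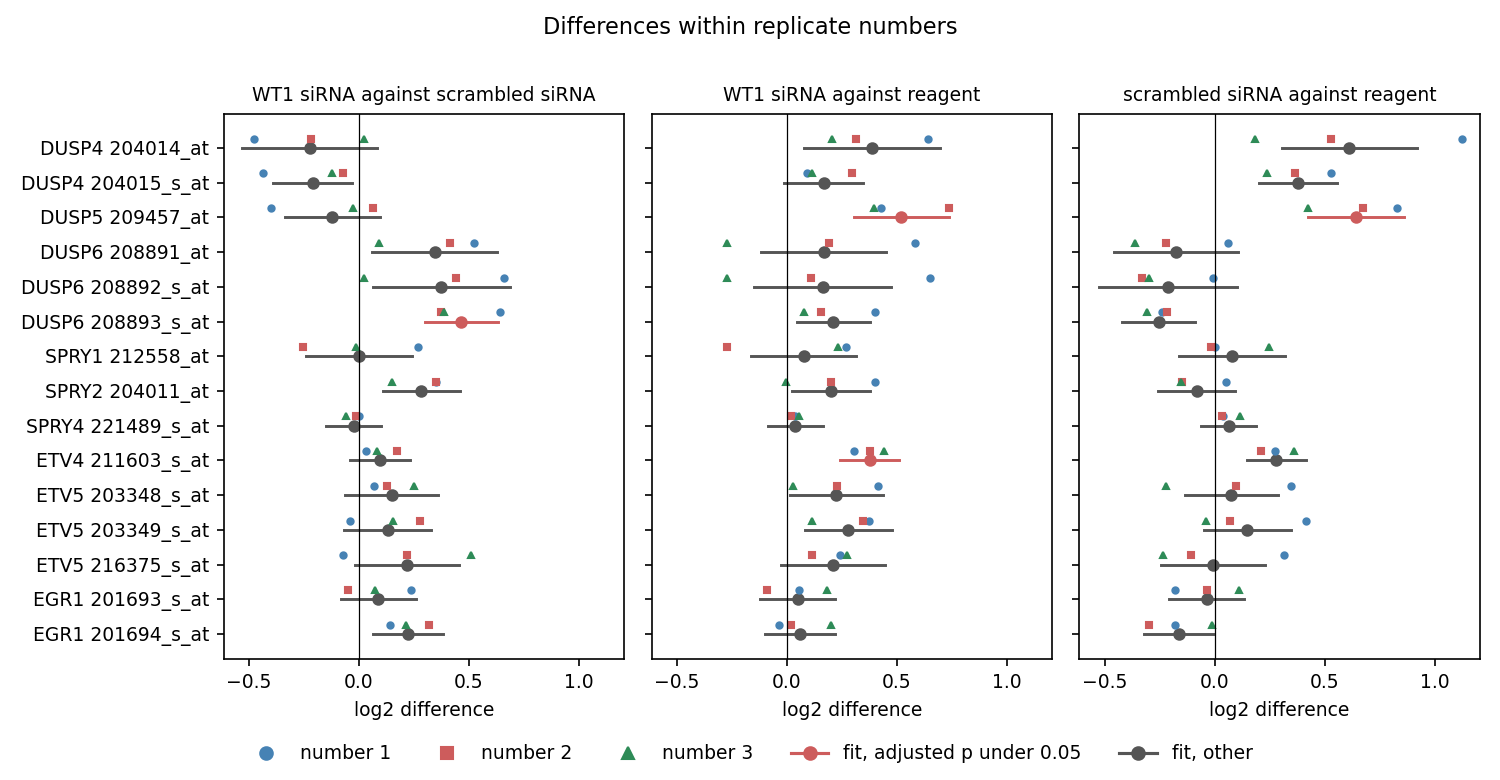
Log2 differences of the 15 member probe sets in the 3 comparisons: small symbols are the differences within replicate numbers 1, 2 and 3, and the large points with bars are the fitted differences with their 95% confidence intervals, in red where the adjusted p is under 0.05. DUSP5 lies right of 0 in both comparisons with reagent at every number, DUSP6 lies right of 0 only against scrambled siRNA at every number of all its probe sets, and SPRY4 stays near 0 in all 3.

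DUSP5 encodes a nuclear phosphatase specific for ERK. It was higher with either siRNA than with reagent alone. DUSP5 (209457_at) read 6.97, 8.27 and 7.76 with WT1 siRNA at numbers 1, 2 and 3. With scrambled siRNA it read 7.37, 8.20 and 7.79, and with reagent 6.54, 7.53 and 7.37. The reagent array was the lowest of its number in all 3 numbers, although the groups overlap because number 1 is low throughout. Scrambled siRNA exceeded reagent by 0.64 (SE 0.097, 1.56-fold, adjusted p = 0.0173), with differences of 0.83, 0.67 and 0.42 by number. WT1 siRNA exceeded reagent by 0.52 (SE 0.097, 95% interval 0.30 to 0.74, adjusted p = 0.0388), with differences of 0.43, 0.74 and 0.39.

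Between the siRNAs the DUSP5 difference was −0.12 (95% interval −0.34 to 0.10, adjusted p = 0.623), with −0.40 at number 1 and 0.07 and −0.03 at the others. An interval of that width leaves room for a difference in either direction. Both calls against reagent were lost when some single arrays were left out. That of scrambled siRNA was lost without scrambled array 1 (adjusted p = 0.0889) or 2 (0.113), reagent array 1 (0.0824) or 2 (0.146), or all arrays of number 1 (0.0743) or 2 (0.285). That of WT1 siRNA was lost without WT1 siRNA array 2 (0.151) or 3 (0.086), scrambled array 2 (0.0778) or 3 (0.0545), reagent array 1 (0.128), 2 (0.213) or 3 (0.0579), or number 2 (0.387) or 3 (0.0894). The differences stayed above 0 in each of these fits, from 0.52 to 0.75 for scrambled siRNA and from 0.41 to 0.61 for WT1 siRNA. Leaving out scrambled array 2 or 3 kept the WT1 siRNA difference at 0.52, and only the estimate of its spread and the adjustment changed. Without number 2, the comparisons of scrambled and of WT1 siRNA with reagent had 3 and 0 of all probe sets passing. With all arrays these counts were 242 and 277.

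DUSP4, a nuclear phosphatase that acts on ERK and on other MAP kinases, was measured by a pair of probe sets that did not pass in any comparison. At 204014_at it read 6.90, 8.01 and 7.78 with WT1 siRNA, 7.37, 8.23 and 7.76 with scrambled siRNA, and 6.25, 7.70 and 7.58 with reagent. At 204015_s_at the values were 7.37, 8.32 and 8.02, then 7.81, 8.39 and 8.15, then 7.28, 8.03 and 7.91. The reagent array again had the lowest value of its number at both probe sets and all 3 numbers, and the groups overlap. Scrambled siRNA lay above reagent by 0.61 (SE 0.137, adjusted p = 0.0751) and by 0.38 (SE 0.079, adjusted p = 0.0623), which miss the threshold. The first passed without scrambled array 3 (0.0495), without number 3 (0.0407) and with an intensity trend (0.0315). The second passed without WT1 siRNA array 1 (0.0378), with those 2 groups fitted alone (0.0327), among probe sets above the median level (0.0409) and with an intensity trend (0.0295). At number 1 the difference at 204014_at was 1.12, against 0.53 and 0.19 at numbers 2 and 3.

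WT1 siRNA lay above reagent by 0.39 (adjusted p = 0.221) and 0.17 (0.366) at the DUSP4 probe sets. Against scrambled siRNA it lay below, at −0.22 (95% interval −0.53 to 0.08, adjusted p = 0.48) and −0.21 (−0.39 to −0.03, adjusted p = 0.215). The second of these was below 0 at all 3 numbers (−0.44, −0.07 and −0.13), the single member probe set of which that holds. For comparison, 18.6% of all probe sets were lower with WT1 than with scrambled siRNA at all 3 numbers.

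DUSP6 encodes a cytoplasmic phosphatase selective for ERK, and its transcript is a widely used readout of ERK activity. It was higher with WT1 siRNA than with scrambled siRNA at 1 of its 3 probe sets. At 208893_s_at it read 8.10, 8.15 and 7.94 with WT1 siRNA, 7.46, 7.77 and 7.56 with scrambled siRNA, and 7.70, 7.99 and 7.87 with reagent. Every WT1 siRNA value exceeded every scrambled value, and the reagent value lay between the others at each number. Groups that do not overlap were found for 1 of the 15 member probe sets and for 6.67% of all probe sets in that comparison. The difference was 0.47 (SE 0.074, 95% interval 0.30 to 0.63, 1.38-fold, adjusted p = 0.0122), with 0.64, 0.37 and 0.39 by number.

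The other DUSP6 probe sets lay the same way without passing. At 208891_at the values were 7.41, 8.00 and 7.52 with WT1 siRNA, 6.89, 7.59 and 7.42 with scrambled siRNA, and 6.83, 7.81 and 7.79 with reagent. At 208892_s_at, the brightest, they were 8.03, 8.48 and 7.97, then 7.37, 8.04 and 7.94, then 7.38, 8.37 and 8.24. At both, WT1 siRNA exceeded scrambled siRNA at every number, but by little at number 3. The differences were 0.34 (SE 0.126, adjusted p = 0.206; 0.09 at number 3) and 0.37 (SE 0.139, adjusted p = 0.211; 0.02 at number 3). Averaged over its 3 probe sets, DUSP6 differed by 0.39 (SE 0.109, adjusted p = 0.0927).

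Against reagent, WT1 siRNA differed at the DUSP6 probe sets by 0.17, 0.16 and 0.21 (adjusted p 0.584, 0.641 and 0.214). At the first pair of probe sets the sign turned with the number, from 0.58 and 0.65 at number 1 to −0.27 at number 3 in each. Scrambled siRNA lay below reagent by −0.18, −0.21 and −0.25 (adjusted p 0.669, 0.627 and 0.17), so the called difference between the siRNAs was made up of an offset on either side of reagent, neither of which passed. The call at 208893_s_at was lost without the pairing (adjusted p = 0.564). It was also lost without scrambled array 1 (0.0701), 2 (0.0721) or 3 (0.0551), and without all arrays of number 1 (0.0518) or 2 (0.172). Of all probe sets 2 passed between the siRNAs without number 2, beside 726 with all arrays. Without WT1 siRNA array 3 the difference at 208891_at passed at 0.52 (0.0396) and that at 208892_s_at at 0.57 (0.0336).

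**Figure D2:**
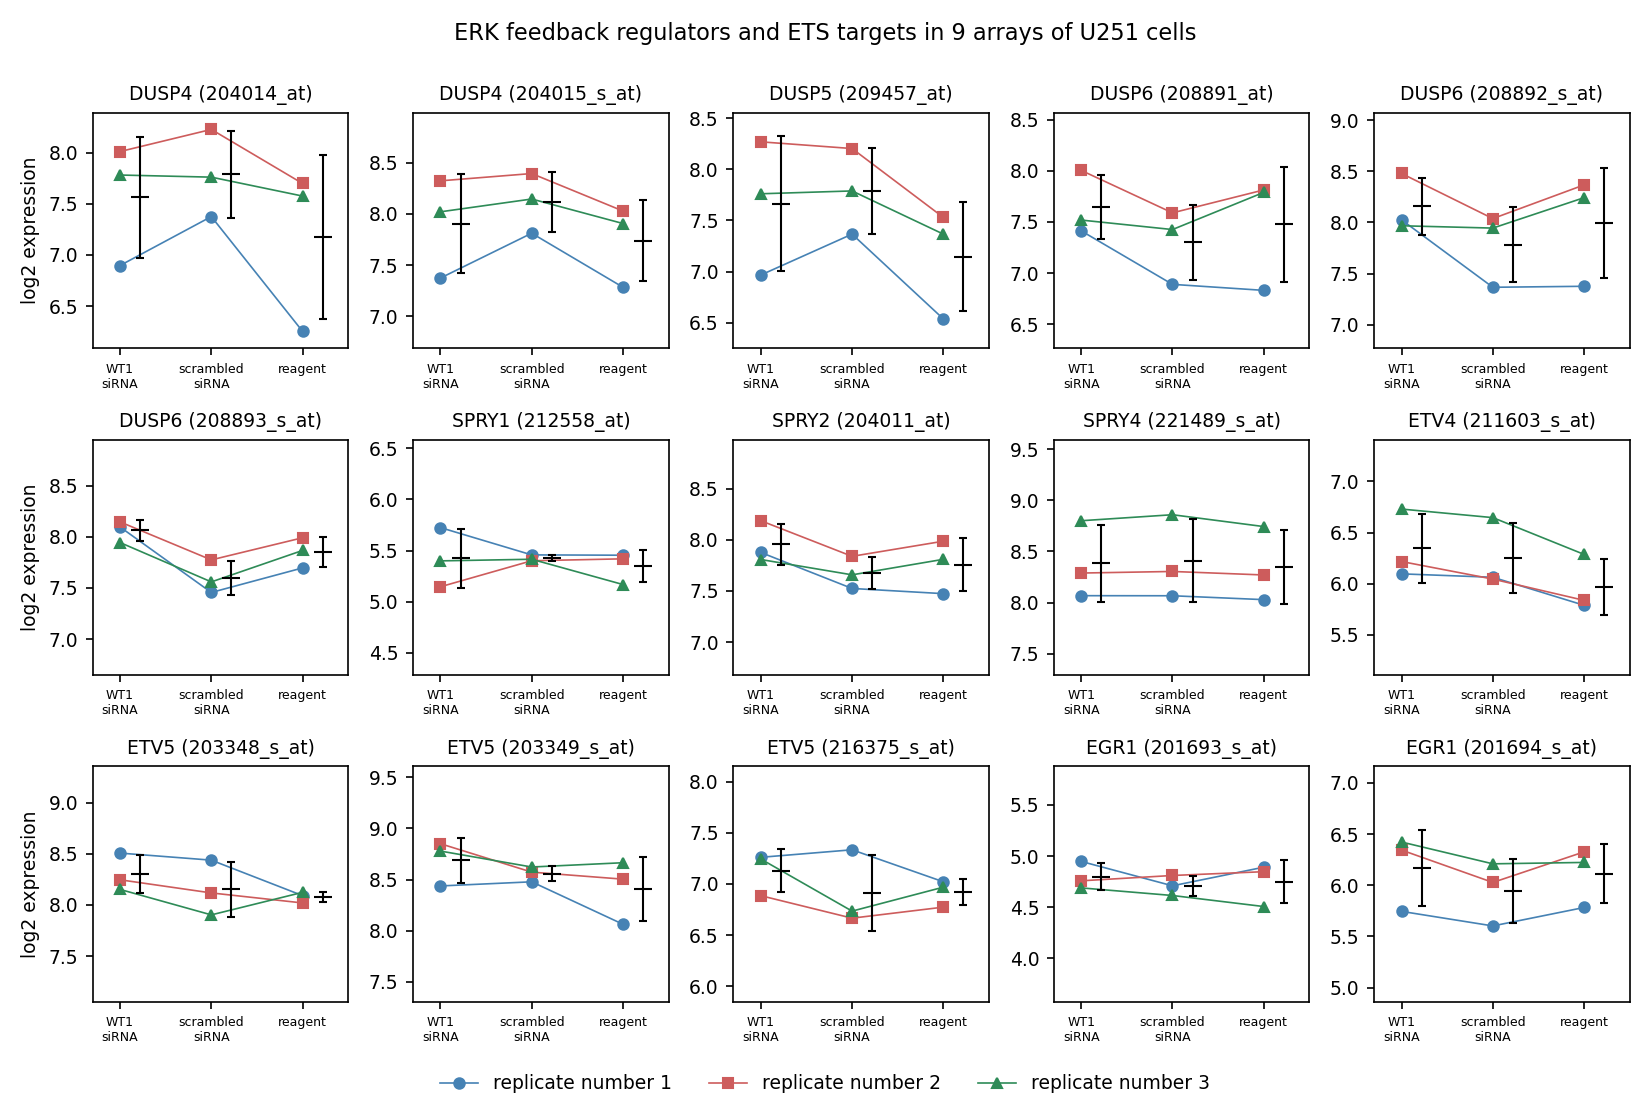
Log2 level (vertical axis, own range but the same span in every panel) of each member probe set on all 9 arrays, by group, with symbols for replicate numbers and a bar for each group mean and its SD. Within most panels the 3 symbols of a group are further apart than the group means, and at 208893_s_at of DUSP6 the WT1 siRNA values (7.94 to 8.15) lie above the scrambled ones (7.46 to 7.77).

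The Sprouty genes encode adaptors that restrain signalling from growth factor receptors to ERK, and no Sprouty probe set passed in any comparison. SPRY2 (204011_at) read 7.88, 8.19 and 7.81 with WT1 siRNA, 7.52, 7.84 and 7.66 with scrambled siRNA, and 7.47, 7.99 and 7.81 with reagent. WT1 siRNA was above scrambled siRNA at each number, by 0.35, 0.35 and 0.15, and the groups overlap. The difference of 0.28 (SE 0.078, 95% interval 0.11 to 0.46) had an adjusted p of 0.0926. It passed without WT1 siRNA array 3 (0.37, adjusted p = 0.0423). Against reagent the SPRY2 difference was 0.20 (adjusted p = 0.266), with 0.40 at number 1 and −0.00 at number 3, and scrambled siRNA differed from reagent by −0.08 (0.77).

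SPRY4 (221489_s_at) had nearly the same level in all groups. It read 8.07, 8.29 and 8.80 with WT1 siRNA, 8.07, 8.30 and 8.86 with scrambled siRNA, and 8.03, 8.27 and 8.74 with reagent. The 3 arrays of a number lie within 0.12 of each other, while the numbers themselves are far apart. The difference of WT1 from scrambled siRNA was −0.02 (95% interval −0.15 to 0.10), that of WT1 siRNA from reagent 0.04 (−0.09 to 0.16) and that of scrambled siRNA from reagent 0.06 (−0.06 to 0.19). These intervals are the narrowest of the 15 probe sets and do not reach the size of the called DUSP6 difference.

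SPRY1 (212558_at) was dim, with 27.8 to 37.3% of probe sets dimmer on the same array. It read 5.73, 5.15 and 5.40 with WT1 siRNA, 5.46, 5.40 and 5.42 with scrambled siRNA, and 5.46, 5.42 and 5.17 with reagent. The WT1 siRNA group spans the values of both other groups. Its difference from scrambled siRNA was −0.00 (95% interval −0.24 to 0.24) and from reagent 0.08 (−0.16 to 0.32), and the sign differed between numbers in both comparisons.

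ETV4 and ETV5 encode ETS factors of the PEA3 group, which growth factor signalling through ERK induces. ETV4 was higher with WT1 siRNA than with reagent. Its probe set lay near the middle of the arrays or below, with 38.3 to 53.0% of probe sets dimmer on the same array. ETV4 (211603_s_at) read 6.10, 6.22 and 6.73 with WT1 siRNA, 6.06, 6.05 and 6.65 with scrambled siRNA, and 5.79, 5.84 and 6.29 with reagent. At each number the order was WT1 siRNA, scrambled siRNA, reagent, though the groups overlap. WT1 siRNA exceeded reagent by 0.38 (SE 0.060, 95% interval 0.24 to 0.51, 1.30-fold, adjusted p = 0.0233), with 0.31, 0.38 and 0.44 by number. Scrambled siRNA lay above reagent by 0.28 (SE 0.060, adjusted p = 0.0665), and the siRNAs differed from each other by 0.10 (95% interval −0.04 to 0.23, adjusted p = 0.493).

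The ETV4 call was lost without WT1 siRNA array 2 (0.12) or 3 (0.0606), scrambled array 2 (0.051), reagent array 1 (0.071), 2 (0.138) or 3 (0.102), or all arrays of number 1 (0.0556), 2 (0.33) or 3 (0.134), all as adjusted p. The difference itself stayed between 0.34 and 0.41 in these fits. Of all probe sets 0 passed between WT1 siRNA and reagent without number 2, beside 277 with all arrays.

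ETV5 did not pass at any of its 3 probe sets. At 203349_s_at it read 8.44, 8.85 and 8.78 with WT1 siRNA, 8.48, 8.57 and 8.62 with scrambled siRNA, and 8.06, 8.50 and 8.66 with reagent. At 203348_s_at the values were 8.51, 8.25 and 8.15, then 8.44, 8.12 and 7.90, then 8.09, 8.02 and 8.12. At 216375_s_at they were 7.26, 6.88 and 7.24, then 7.33, 6.66 and 6.73, then 7.02, 6.77 and 6.97. In each probe set WT1 siRNA was above reagent at every number.

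The ETV5 differences of WT1 siRNA from reagent were 0.28, 0.22 and 0.21 in the same order (adjusted p 0.173, 0.3 and 0.39). At 203348_s_at all WT1 siRNA values, the lowest 8.15, exceeded all reagent values, the highest 8.12. Such a separation was found for 1 of 15 member probe sets and 5.5% of all probe sets. Between scrambled siRNA and reagent 0 member probe sets were separated so, beside 5.26% of all. Against scrambled siRNA the differences were 0.13, 0.15 and 0.22 (adjusted p 0.531, 0.498 and 0.348), and between scrambled siRNA and reagent 0.15, 0.07 and −0.01.

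EGR1 encodes the zinc finger early-response factor whose own promoter, with its paired CArG boxes, is shown above. It did not pass in any comparison. At 201694_s_at it read 5.75, 6.34 and 6.42 with WT1 siRNA, 5.60, 6.03 and 6.21 with scrambled siRNA, and 5.78, 6.33 and 6.22 with reagent. WT1 siRNA was above scrambled siRNA at each number (0.14, 0.32 and 0.21), and scrambled siRNA was the lowest of each number. The difference was 0.22 (SE 0.070, 95% interval 0.07 to 0.38, adjusted p = 0.138). From reagent WT1 siRNA differed by 0.06 (−0.10 to 0.22, adjusted p = 0.749) and scrambled siRNA by −0.16 (0.4).

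The other EGR1 probe set, 201693_s_at, was dim, with 15.0 to 22.1% of probe sets dimmer on the same array. It read 4.95, 4.76 and 4.69 with WT1 siRNA, 4.71, 4.81 and 4.62 with scrambled siRNA, and 4.89, 4.85 and 4.51 with reagent. The groups overlap, and the differences were 0.09, 0.05 and −0.04 (adjusted p 0.659, 0.817 and 0.921).

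Taking the members by direction, 7 of the 15 probe sets were higher with WT1 than with scrambled siRNA at all 3 numbers: those of DUSP6, SPRY2 and ETV4, and 1 each of ETV5 and EGR1. Over all probe sets that share was 17.1%. Against reagent 9 of 15 were higher at all 3 numbers (17.7% of all probe sets), while 0 were lower (16.3%). The 9 were those of DUSP4, DUSP5, ETV4, ETV5 and SPRY4 and 208893_s_at of DUSP6. Between scrambled siRNA and reagent 5 were higher (20.5%) and 3 lower (17.2%).

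At 14 of the 15 member probe sets more of the sum of squares lay between replicate numbers than between treatment groups, the exception being 208893_s_at of DUSP6. Over all probe sets, 71.4% of the sum of squares lay between numbers and 15.6% between groups. Of the member probe sets, 12 of 15 differed between numbers (limma F test, adjusted p under 0.05), as did 49.7% of all probe sets. Number 1 had the lowest mean at 11 of the 15. Differences between the 3′ and 5′ control probe sets also moved with the number: for ACTB they were 0.05 to 0.09 at number 1, 0.55 to 0.68 at number 2 and 0.26 to 0.50 at number 3, and for GAPDH −0.02 to −0.01, 0.16 to 0.18 and 0.10 to 0.11. Their ranges overlapped between the treatment groups, but within numbers they differed by treatment. For ACTB the WT1 siRNA array lay below the reagent array at each number (0.08 and 0.09, 0.55 and 0.62, 0.26 and 0.50). Against scrambled siRNA (0.05, 0.68 and 0.46) it lay above at number 1 and below at the others. For GAPDH it lay above reagent at each number (−0.01 and −0.02, 0.18 and 0.16, 0.11 and 0.10). The part of these differences in the member values was not tested.

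DUSP4 at 204014_at averaged 6.84, 7.98 and 7.71 at numbers 1, 2 and 3 (adjusted p = 0.000365), and DUSP5 averaged 6.96, 8.00 and 7.64 (1e-04). In both genes number 2 lay more than 1 log2 unit above number 1, by 1.14 and 1.04, further than any fitted treatment difference of these genes. DUSP6 had the same order at 208891_at (7.04, 7.80 and 7.58) and at 208892_s_at (7.59, 8.29 and 8.05). The probe set that passed between the siRNAs, 208893_s_at, had number means of 7.75, 7.97 and 7.79 that did not pass (adjusted p = 0.0603). There 18.7% of the sum of squares lay between numbers and 73.3% between groups, against 71.4% and 13.9% at 208891_at and 63.4% and 17.4% at 208892_s_at.

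A different order was seen in SPRY4 and ETV4, where number 3 was the highest. SPRY4 averaged 8.05, 8.29 and 8.80 (adjusted p = 3.25e-05), and 99.1% of its sum of squares lay between numbers and 0.678% between groups. ETV4 averaged 5.98, 6.03 and 6.55 (0.000123), with 71.4% between numbers and 27.4% between groups. EGR1 at 201694_s_at averaged 5.71, 6.23 and 6.29 (0.000284). The ETV5 probe sets differed from each other: 203349_s_at was lowest at number 1 (8.33, 8.64 and 8.69), while 216375_s_at was highest there (7.20, 6.77 and 6.98). SPRY1 did not pass (5.55, 5.32 and 5.33, adjusted p = 0.162).

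**Figure D3:**
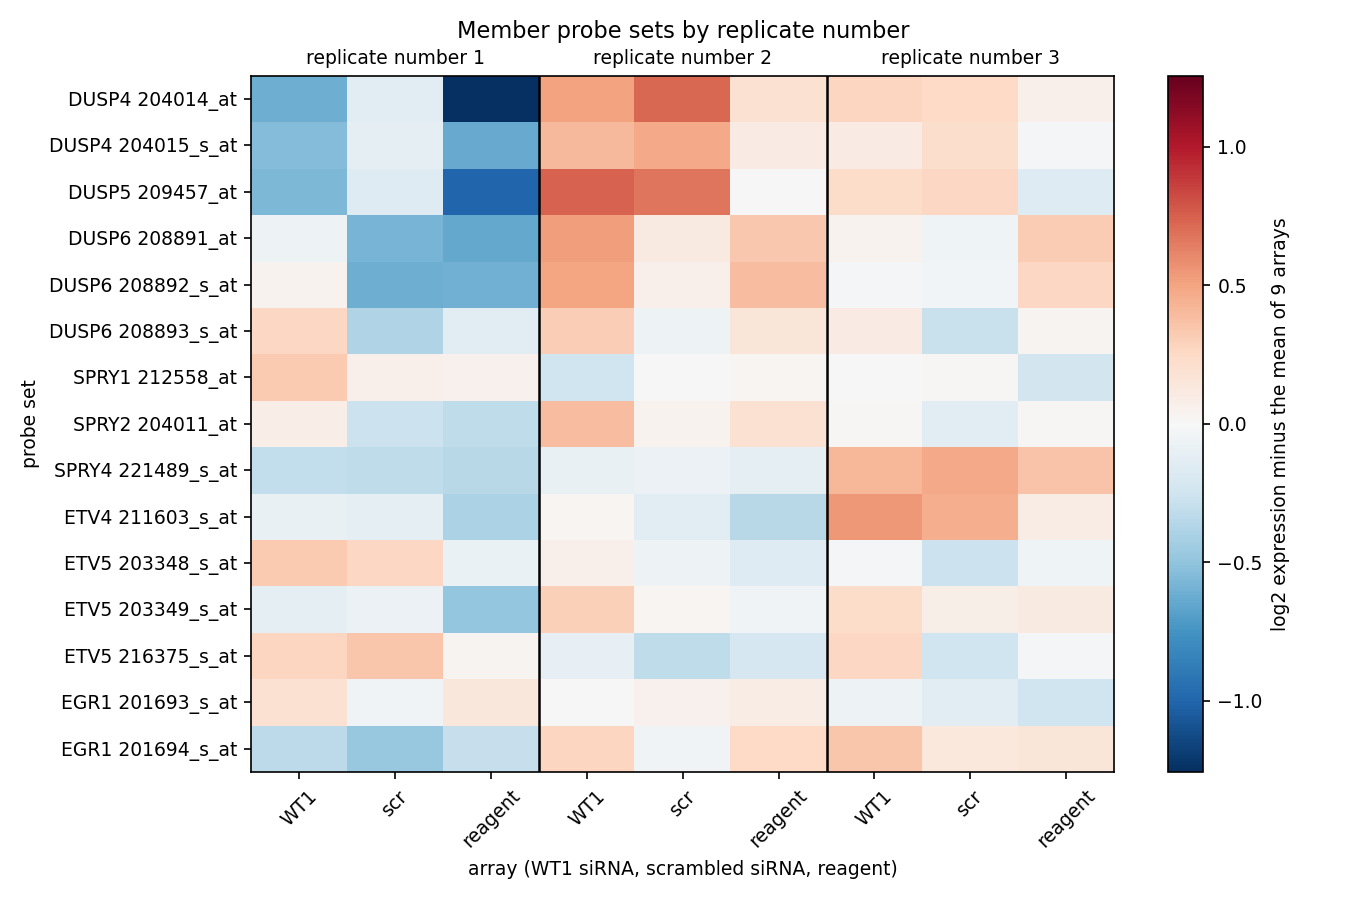
Heat map of the log2 level of each member probe set on the 9 arrays minus that probe set's mean, with arrays ordered by replicate number and by group within it (scr, scrambled siRNA). The 3 arrays of number 1 form a block of low values for DUSP4 and DUSP5 (for DUSP6 at 2 probe sets, its scrambled and reagent arrays do), and those of number 3 a block of high values for SPRY4 and ETV4.

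For each member gene, at its brightest probe set, the genes with the most similar profile were sought among 11962 other genes. Likeness was the root mean square difference of log2 values over the 9 arrays after each profile was centred on its mean. The 9 profiles compared include what arrays of a replicate number share. For DUSP4 the nearest was EGFR, the receptor of the EGF family (0.08), and then NPC1 (0.0875). DUSP5 was nearest to IRS1, an adaptor of insulin and IGF receptors (0.0999), and IL7R (0.139). For DUSP6 they were LAMB1 (0.104) and HIPK1 (0.129).

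SPRY2 was nearest to SIK2 (0.0604) and UBE4B (0.0769), SPRY4 to BAG1 (0.0567) and MICAL1 (0.0596), and SPRY1 to PCDHGA9 (0.0557) and ALOX12P2 (0.0645). ETV4 was nearest to NEU1 (0.0779) and B4GALT5 (0.0868), ETV5 to SEC62 (0.0753) and NUP62 (0.0817), and EGR1 to NPAS2 (0.059) and ZFC3H1 (0.0665). None of these 18 neighbours was itself a member. Of the members among each other, the smallest differences were those of ETV4 and SPRY4 (0.166), ETV5 and SPRY2 (0.173), DUSP6 and SPRY2 (0.189), and DUSP4 and DUSP5 (0.193). The ranks depend on which gene is the starting point: DUSP4 had rank 5 for DUSP5 and DUSP5 rank 234 for DUSP4, SPRY2 had rank 58 for DUSP6 and DUSP6 rank 1439 for SPRY2, and SPRY4 had rank 95 for ETV4 and ETV4 rank 265 for SPRY4. For ETV5 and SPRY2 the ranks were 754 and 883.

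The rest of the pathway was followed in 95 measured genes of 109 listed, each at its brightest probe set. Of these, 5 passed between the siRNAs, 2 higher (IGF1R and FGFR1) and 3 lower (KLF10, HBEGF and TRIB2), beside 3.7% of all genes (1.39% higher, 2.32% lower). Against reagent IGF1R was higher and KLF10 lower with WT1 siRNA, beside 1.4% of all genes (0.376% higher, 1.02% lower). PLAUR alone was higher with scrambled siRNA than with reagent, beside 1.21% of all genes (0.644% higher, 0.568% lower). The medians of the 95 were −0.01, 0.05 and 0.03, with 47, 60 and 59 above 0, and those of all genes −0.00, 0.01 and 0.01.

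Neither the ERK cascade (16 genes, RAS, RAF, MEK and ERK genes with their adaptors and RSK kinases) nor the other ETS factors (20 genes) had a member that passed in any comparison. With unadjusted p under 0.05 there were 3, 0 and 2 cascade genes and 3, 8 and 3 ETS genes, beside 17.7%, 15.9% and 13.1% of all genes. Of the 18 other inhibitors of the pathway, TRIB2 passed, between the siRNAs. Of the 12 growth factor receptors, IGF1R and FGFR1 passed, and of the 29 other output genes KLF10, HBEGF and PLAUR did.

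IGF1R, the receptor of insulin-like growth factors, read 9.49, 9.74 and 9.58 with WT1 siRNA, 9.15, 9.17 and 9.24 with scrambled siRNA, and 9.14, 9.26 and 9.27 with reagent. The WT1 siRNA arrays lay above all others. The difference was 0.42 from scrambled siRNA (SE 0.0649, adjusted p = 0.011) and 0.38 from reagent (0.0279). Its other probe sets were higher by 0.25 and 0.06 than with scrambled siRNA, without passing. FGFR1, a fibroblast growth factor receptor, was higher by 0.38 than with scrambled siRNA (SE 0.0713, adjusted p = 0.0238) and differed from reagent by 0.29 (0.0893). Its other 5 probe sets did not pass. Between the siRNAs they differed by 0.33 at 210973_s_at and by 0.04 to 0.10 at the rest.

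KLF10, a zinc finger early-response gene, read 8.91, 9.73 and 9.38 with WT1 siRNA, 9.34, 10.19 and 10.01 with scrambled siRNA, and 9.14, 10.05 and 9.89 with reagent. WT1 siRNA was the lowest of each number. KLF10 fell by 0.51 against scrambled siRNA (SE 0.0677, adjusted p = 0.00644) and by 0.35 against reagent (0.0424). HBEGF encodes a ligand of the EGF receptor and is itself an early-response gene. It read 7.00, 7.60 and 6.93 with WT1 siRNA, 7.71, 8.14 and 7.32 with scrambled siRNA, and 7.41, 7.46 and 7.10 with reagent. Only the scrambled arrays stood above the others at every number. HBEGF fell by 0.55 against scrambled siRNA (adjusted p = 0.0242). From reagent WT1 siRNA differed there by −0.15 (0.54), with 0.14 at number 2, and scrambled siRNA by 0.40 (0.121). At the HBEGF probe set 38037_at the fall against scrambled siRNA was 0.54 (0.00863), and scrambled siRNA was above reagent by 0.46 (0.0299). The HBEGF probe set 222076_at differed by −0.04 between the siRNAs (0.925).

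TRIB2, a Tribbles pseudokinase, fell by 0.51 against scrambled siRNA (SE 0.103, adjusted p = 0.0317) and differed from reagent by −0.48 (0.0616). Its other probe set differed by −0.33 from scrambled siRNA (0.172), with 0.02 at number 1. PLAUR, the urokinase receptor, read 9.98, 10.06 and 9.57 with scrambled siRNA and 9.31, 9.42 and 9.06 with reagent, groups that do not overlap. It rose by 0.61 (SE 0.110, adjusted p = 0.036), and with WT1 siRNA it read 9.40, 9.94 and 9.64, 0.39 above reagent (0.128). The other PLAUR probe sets differed by 0.42 (0.0671) and 0.19 (0.308) between scrambled siRNA and reagent. EGFR, the nearest profile to DUSP4, differed by 0.31 between scrambled siRNA and reagent (0.117), and its other 5 probe sets by −0.07 to 0.43 (0.0733 or more). KLF10 and HBEGF thus lay lower with WT1 than with scrambled siRNA, while DUSP6 at 208893_s_at lay higher. Against reagent, KLF10 alone of these passed with WT1 siRNA.

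Without the pairing by replicate number 0 of these pathway calls held (adjusted p 0.377 or more). Without all arrays of number 2 all 8 were lost (0.144 to 0.44). Over all probe sets 2, 0 and 3 then passed, beside 726, 277 and 242 with all arrays. Leaving out 1 array also changed these counts, to 395, 6 and 22 without reagent array 2 and 88, 110 and 20 without scrambled array 2. Without WT1 siRNA array 1 they were 618, 465 and 386. Each pathway call was also lost when some single arrays were left out, given as adjusted p without the array named. Leaving out an array outside the comparison kept the difference and changed only the estimate of its spread and the adjustment. IGF1R against scrambled siRNA was lost without WT1 siRNA array 2 (0.0625) or scrambled array 2 (0.0982), and KLF10 without scrambled array 2 (0.0537). HBEGF was lost without WT1 siRNA array 1 (0.0647) or 2 (0.0573) or scrambled array 1 (0.109) or 2 (0.16). FGFR1 was lost without WT1 siRNA array 2 (0.117) or 3 (0.0635), scrambled array 1 (0.0601), 2 (0.153) or 3 (0.109), or reagent array 2 (0.0523). TRIB2 was lost without WT1 siRNA array 2 (0.113) or 3 (0.0685), scrambled array 1 (0.0926), 2 (0.191) or 3 (0.0883), or reagent array 2 (0.0577).

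Against reagent, IGF1R was lost without WT1 siRNA array 2 (0.133), scrambled array 2 (0.054) or 3 (0.0552), or reagent array 1 (0.0999), 2 (0.181) or 3 (0.0914). KLF10 was lost there without WT1 siRNA array 2 (0.139) or 3 (0.0999), scrambled array 1 (0.0706), 2 (0.0904) or 3 (0.077), or reagent array 1 (0.0907), 2 (0.202) or 3 (0.174). PLAUR was lost without WT1 siRNA array 2 (0.0539), scrambled array 1 (0.18), 2 (0.186) or 3 (0.0534), or reagent array 1 (0.0824), 2 (0.224) or 3 (0.129). Without WT1 siRNA array 1 other differences from reagent passed: with WT1 siRNA those of FGFR1 (0.0288), PLAUR (0.015), TRIB2 (0.0175) and EGFR (0.0428), and with scrambled siRNA that of EGFR (0.0356).

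**Figure D4:**
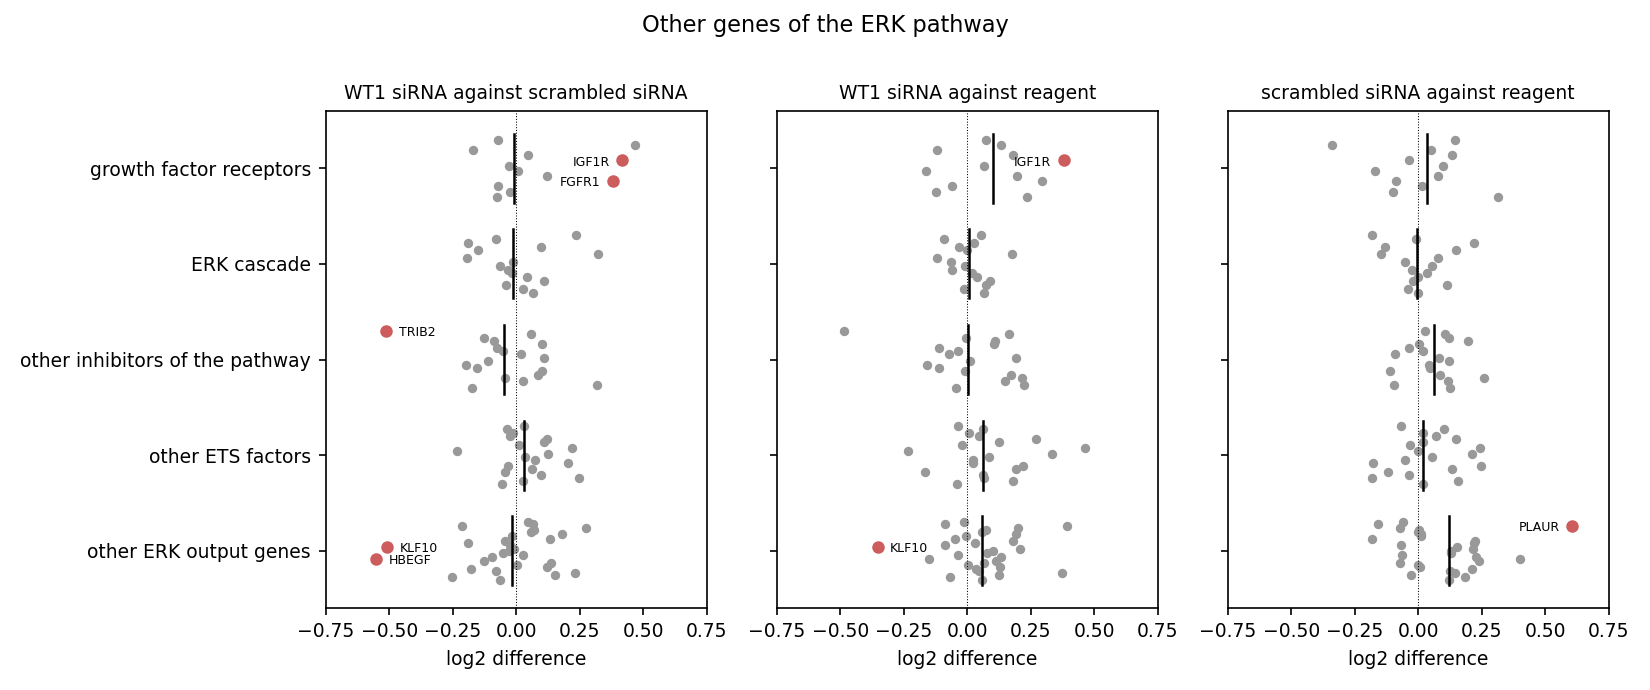
Log2 differences of the 95 other ERK pathway genes, each at its brightest probe set, by list in the 3 comparisons: grey points are genes, red named points have an adjusted p under 0.05, and black bars are list medians. List medians lie between −0.05 and 0.12. The named genes lie towards the ends of their lists, and some unnamed ones lie as far out, such as PDGFRA between the siRNAs (0.47, adjusted p = 0.219).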

How the data were processed

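RNA from 9 cultures of U251 cells was hybridised to Affymetrix arrays, and the series calls the replicates biological. The authors deposited log2 values per probe set made with RMA (robust multi-array average), per the submitters' processing notes, which corrects the background and normalises between arrays. No source used here gives the software or the chip definition. RMA pulls low values together, so differences of dim probe sets can be understated. Arrays carry no count depth, and their number, 3 a group, limits the precision.

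Of 22277 probe sets, 62 controls were left out, which left 22215. Gene names came from the platform's probe annotation: 19064 probe sets had 1 symbol, 1043 several and 2108 none, and no gene was named from a probe set with several. Of the symbols, 19052 were looked up by gene ID and 0 changed. No values were missing and 0 arrays were identical.

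Groups and replicate numbers came from the sample titles. limma 3.58.1 in R 4.3.3 (lmFit, contrasts.fit, eBayes) was fitted to all 9 arrays with 1 mean per group and the replicate number as a fixed block, which leaves 4 residual degrees of freedom. Tests were two-sided, and each comparison's p-values received the Benjamini-Hochberg adjustment over 22215 probe sets. Every p in the text is from that fit unless another is named, and intervals are 95% intervals for 1 probe set, with no adjustment. The same fit gave the F test between numbers. The numbers pair the arrays by this check: deviations from group means over all probe sets correlated by 0.647 to 0.849 in the 9 pairs of the same number and by −0.611 to −0.031 in the 18 other pairs. Deviations from a group mean cancel within the group, so positive same-number correlations make the others negative on average. The negative range is therefore not separate support for the pairing. No source used here says what a number stands for (a day, a batch). P-values then measure the spread left within numbers.

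Named were all member probe sets, WT1 and, of the other pathway genes in each comparison, the up to 6 called with the smallest p, or the 3 with the smallest p where fewer than 3 were called; what their other probe sets showed is given for the comparison named. For each member the 2 genes with the nearest profile were named. The members, the gene lists and the choice of the paired fit were made with earlier results of these data known, so counts over them are descriptions. Alternatives were no block, a random block, fits of 2 groups alone, median centring, renewed quantile normalization, a filter at the median level, an intensity trend with a robust prior, the mean over a gene's probe sets, and leaving out each array or number. Promoters came from RefSeq (GRCh38.p14). Figures were drawn with matplotlib 3.10.9.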

Additional observations from a re-analysis of the deposited data

How the results depend on the processing

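In the fit paired by replicate number, 1, 2 and 1 member probe sets passed (WT1 against scrambled siRNA, WT1 siRNA against reagent, scrambled siRNA against reagent), and 5, 2 and 1 other pathway genes. Of all 22215 probe sets 726, 277 and 242 passed. Without the replicate block these counts were 0, 0 and 0 for members and pathway genes and 4, 0 and 1 for all probe sets. With the number as a random block (correlation 0.634) 1, 0 and 0 members and 1, 1 and 0 pathway genes passed (356, 118 and 88 of all probe sets). With 2 groups fitted alone they were 1, 0 and 2 members and 3, 0 and 2 pathway genes (390, 3 and 535 of all). With probe sets above the median level alone, 1 member passed between WT1 siRNA and reagent and 2 between scrambled siRNA and reagent (441 and 360 of the 11107 tested); ETV4 was not tested there. With an intensity trend and robust prior, 3 members and 3 pathway genes passed between scrambled siRNA and reagent (485 of all). Leaving out 1 array or number gave 0 to 4, 0 to 2 and 0 to 2 members, 0 to 6, 0 to 7 and 0 to 2 pathway genes, and 6 to 12 member probe sets differing between numbers (12 with all arrays). Of all probe sets 2 to 706, 0 to 465 and 3 to 387 then passed. Fewer arrays also leave fewer degrees of freedom.

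Of 45 member results, 34 kept their sign under every setting, and 36 passed under none. All reversals came from leaving out arrays, among differences that did not pass. Against scrambled siRNA the ranges were −0.222 to 0.019 for DUSP5, −0.135 to 0.149 for SPRY1 and −0.140 to 0.047 for EGFR. Between WT1 siRNA and reagent they were −0.040 to 0.386 for DUSP6 at 208891_at, −0.082 to 0.380 at 208892_s_at, −0.039 to 0.250 for SPRY1, −0.020 to 0.119 for EGR1 at 201693_s_at and −0.013 to 0.108 at 201694_s_at. Between scrambled siRNA and reagent they were −0.110 to 0.037 for EGR1 at 201693_s_at, −0.061 to 0.222 for ETV5 at 203348_s_at, −0.171 to 0.119 at 216375_s_at, −0.0078 to 0.188 for SPRY1, −0.067 to 0.013 for IGF1R and −0.065 to 0.081 for TRIB2. The cause was not tested. Centring or renewed normalization moved the median of all probe sets by less than 0.03.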

Other observations

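One further probe set bears on SPRY4. Probe set 220983_s_at is listed in the probe annotation under MIR612 and NEAT1, while the accession it is listed with belongs to SPRY4 in the RefSeq gene table. It was not counted among the members. Its log2 level lay between 3.83 and 4.06 on the 9 arrays, where 2.35 to 5.48% of probe sets were dimmer, and it differed by 0.02 between WT1 and scrambled siRNA, by −0.08 between WT1 siRNA and reagent and by −0.10 between scrambled siRNA and reagent (adjusted p from limma 0.924, 0.665 and 0.658). The probe set named SPRY4, 221489_s_at, lay between 8.03 and 8.86.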
